A study of Mus musculus with 6 samples.

Results

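The genes described here are 9 members of the hepatic glycogen machinery: the glycogen-targeting subunits of protein phosphatase 1 (Ppp1r3b, Ppp1r3c, Ppp1r3d, Ppp1r3e, Ppp1r3f and Ppp1r3g), glycogen synthase (Gys2), glycogen phosphorylase (Pygl) and the branching enzyme (Gbe1). They were found by gene symbol, and all 9 occurred among the 25718 genes of the table. They were selected on the measured genotype difference of Ppp1r3g and Ppp1r3b in these same libraries, and the other members were added as their family and their substrates, so the values of the 9 genes are a description and carry no test. Primary hepatocytes were sequenced from 2 genotypes, WT and S100a16KO+/-, with 3 libraries each. The S100a16KO+/- mice carried 1 deleted allele in which exons 2 to 3 had been floxed and then removed by EIIa-Cre, a general deleter that acts in the early embryo, on a C57BL/6 background of over 98%; the sample labels name this genotype S100A16 knockdown. Both genotypes were alcohol-fed male mice, 8 to 10 weeks old, that received control liquid diet for 5 days, 5% ethanol diet for 10 days and then a single ethanol gavage of 5 g/kg, and tissue was taken 9 h later. No library from mice on control diet was analysed here, and whether cells of several mice were pooled, or were cultured before RNA extraction, was not given in the sources used here.

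Hepatocytes store glucose as glycogen. Glycogen synthase lengthens the chains from UDP-glucose, the branching enzyme introduces branch points, and glycogen phosphorylase releases glucose units as glucose 1-phosphate. Protein phosphatase 1 (PP1) removes phosphate from both synthase and phosphorylase, which activates the former and inactivates the latter, and the Ppp1r3 proteins are the subunits that hold PP1 on the glycogen particle. The catalytic subunit is common to them, so the set of Ppp1r3 genes that a cell expresses decides which targeting subunits are available. In liver, Ppp1r3b is known as an insulin-responsive subunit, and Ppp1r3g as one whose transcript rises on fasting.

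Library totals ranged from 67658095 to 71807834 estimated counts. A count of 4 was far more frequent (931 to 1011 genes per library) than a count of 3 (495 to 561) or 5 (244 to 292), which puts a fragment at about 4 counts. Counts of 1 (748 to 796 genes) and 2 (540 to 599) occurred as well, so not every value is a whole number of such units, and the unit is approximate. The limit below which a gene cannot be told from absent was set at 3 fragments, that is 12 counts or 0.167 to 0.187 CPM (counts scaled by TMM to library size), and covers counting error only. S100a16 itself was at 15.3 ± 0.796 CPM in WT and 5.80 ± 0.628 CPM in S100a16KO+/- libraries (SD, n = 3), a difference of -1.40 on the log2 scale (standard error 0.11, adjusted p = 4.14e-07 in edgeR's quasi-likelihood test). Of the hepatocyte markers Alb, Apoa1, Ttr, Cps1, Tat and Cyp2e1, none was near the limit, and their summed level was 108807 to 120142 CPM in WT and 105450 to 116734 CPM in S100a16KO+/- libraries, most of it Alb. Of these 6, Tat was higher (1.13-fold) and Ttr and Cyp2e1 were lower (79.7% and 79.5% of the WT level) in S100a16KO+/- libraries, with adjusted p of 0.00921, 0.000645 and 0.000106 (edgeR). Markers of other liver cells were present in both genotypes: sinusoidal endothelial markers summed to 143.2 to 151.9 CPM in WT and 214.5 to 219.7 CPM in S100a16KO+/- libraries (4 of 4 higher), and stellate cell markers to 33.9 to 37.3 and 61.7 to 68.5 CPM (3 of 4 higher, Col1a1 not). For Kupffer cells and macrophages 2 of 4 were higher, with sums of 50.1 to 61.6 and 60.3 to 67.2 CPM, most of it Clec4f. The higher ones were Marco (167% of the WT level) and Cd68 (152%), with adjusted p of 0.00118 and 0.0145 (edgeR). Clec4f, which defines Kupffer cells, was at 34.4 ± 3.00 and 35.3 ± 2.74 CPM, and Adgre1 at 7.16 and 6.70 CPM. The adjusted p of these was 0.795 and 0.754 (edgeR). Lymphocyte markers summed to 5.59 to 8.55 and 7.34 to 8.33 CPM (1 of 3 lower), cholangiocyte markers to at most 1.13 CPM and muscle markers to at most 0.548 CPM, with Ckm and Tnnt3 at or under the limit in every library. The part of these cells in the values below was not tested, and in bulk RNA fewer cells of a type and less RNA per cell cannot be told apart.

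Of the 9 genes, 5 had values that did not overlap between genotypes, 3 of them higher (Ppp1r3g, Gys2, Gbe1) and 2 lower (Ppp1r3b, Ppp1r3c) in S100a16KO+/- hepatocytes. Over the 15957 genes that passed edgeR's filter on low counts, 37.9% did not overlap in this way. In 4 of the 9, Ppp1r3g, Ppp1r3b, Ppp1r3c and Gys2, the mean CPM was also at least 2-fold apart. No overlap together with a fold of at least 2 in the edgeR fit held for 5.28% of all tested genes. An unadjusted p under 0.05 with a fold of at least 2 was found for 4.52% of tested genes, a criterion not applied to the 9. The rule that chose the genes used this contrast, so nothing is read from these shares. The other 4 genes overlapped, and 2 of these, Ppp1r3d and Ppp1r3f, did not pass the filter. Ppp1r3g passed it through its S100a16KO+/- libraries alone.

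**Figure D1:**
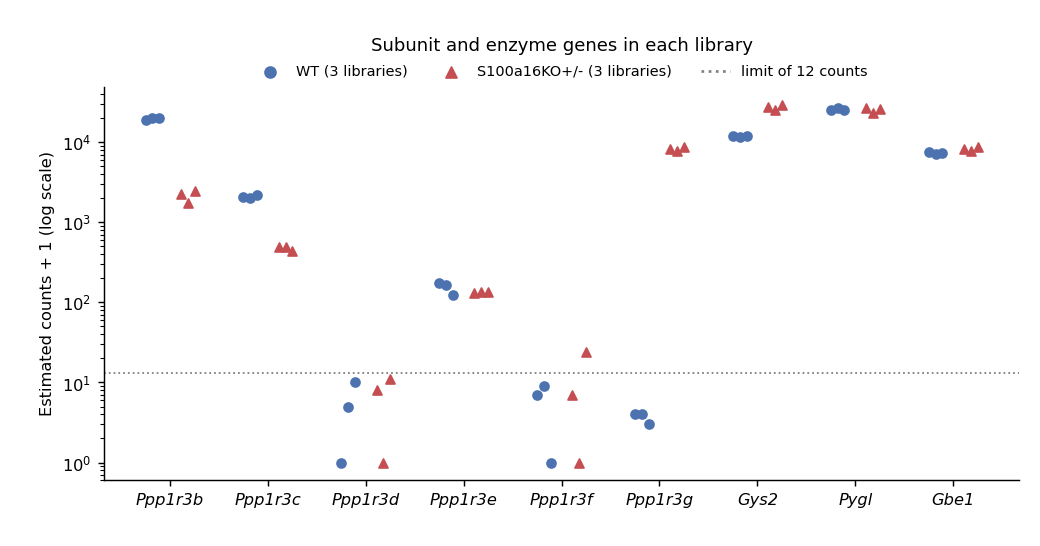
Estimated counts plus 1 (log axis) of the 9 genes in each of 6 libraries, circles for WT and triangles for S100a16KO+/-; the dotted line is the limit of 12 counts. Ppp1r3g lies at 2 to 3 counts in WT and at 7829 to 8812 in S100a16KO+/- libraries, whereas Ppp1r3b lies at 18761 to 20208 and 1732 to 2448.

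Ppp1r3g (ENSMUSG00000050423), the subunit associated with the fasted liver, is encoded on the plus strand of chromosome 13 (35958839 to 35970388, GRCm38); its 2 coding transcripts differ in their first exon. WT libraries had 3, 3 and 2 estimated counts, and S100a16KO+/- libraries 8099, 7829 and 8812. All 3 WT values were under the limit that a count of 0 allows, and no S100a16KO+/- library was near it. Taken at 4 counts per fragment, the summed counts were worth 2 fragments in WT and 6185 in S100a16KO+/- hepatocytes, a ratio of 3115 with an exact 95% counting interval from 862 to 25731. Counts of 2 and 3 are less than 1 such fragment, so ratio and interval are approximate. The WT level could not be told from 0, so the upper end does not bound the ratio. The interval pools the libraries of each genotype, covers counting error only and is not a test. On the FPKM scale, which divides by length, its level was 39.6, 38.3 and 42.3 in the S100a16KO+/- libraries, with a mean of 40.1 ± 2.05 (SD, n = 3). The S100a16KO+/- libraries thus differed from each other by little, and the gene was the most abundant targeting subunit in each of them.

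Ppp1r3b (ENSMUSG00000046794), the hepatic subunit often called GL, is encoded on the plus strand of chromosome 8 (35375739 to 35388139). It was at 37.5, 42.6 and 42.3 FPKM in the WT libraries and at 4.77, 3.67 and 5.09 FPKM in the S100a16KO+/- libraries. The lowest WT library lay far above the highest S100a16KO+/- library. In CPM the means were 284 ± 7.97 and 31.1 ± 3.71 (SD, n = 3 each), 9.11-fold lower in S100a16KO+/- hepatocytes, and the log2 fold change was -3.19 (standard error 0.08). Among the 3 of them, replicate 2 was the lowest, with 1732 counts against 2251 and 2448.

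Ppp1r3c (ENSMUSG00000067279), which encodes protein targeting to glycogen, is encoded on the minus strand of chromosome 19 (36731731 to 36736653). Its FPKM was 9.37, 9.54 and 10.5 in WT and 2.36, 2.36 and 2.07 in S100a16KO+/- libraries. The genotypes did not overlap, and the spread within each was small against the gap. The log2 fold change was -2.12 (standard error 0.10), or 23.1% of the WT level in CPM. As with Ppp1r3b, the direction was opposite to that of Ppp1r3g.

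The remaining subunits were scarce. Ppp1r3e (ENSMUSG00000072494, chromosome 14 from 54872669 to 54877550) had 174, 165 and 123 counts in WT and 130, 134 and 133 in S100a16KO+/- libraries. These ranges overlapped, and the log2 fold change was -0.20 (standard error 0.21). Ppp1r3d (ENSMUSG00000049999, chromosome 2 from 178411206 to 178414472) had 0 to 9 counts in WT and 0 to 10 in S100a16KO+/- libraries, so it was at or under the limit throughout. Ppp1r3f (ENSMUSG00000039556, chromosome X from 7557296 to 7574283) had 0 to 8 counts in WT and 0, 6 and 23 in S100a16KO+/- libraries, 1 of which exceeded the limit. Ppp1r3f overlaps Gm36995 on the same strand, a gene with 107 to 120 counts in WT and 150 to 207 in S100a16KO+/- libraries, with which it shares exons, so counting could have split reads between these genes. Ppp1r3a, the subunit of skeletal muscle, was on the list of other pathway genes, but the table held no gene under that symbol.

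Of the 9 genes, 6 had a promoter window in the RefSeq table (build GRCm38.p6), which runs from 250 bases before to 50 bases after the annotated start; Ppp1r3b, Ppp1r3e and Gys2 had none. The windows of Ppp1r3g and Ppp1r3c are shown because these subunits differed most in opposite directions among those with an entry. Each is printed 5′ to 3′ on the gene's strand and ends before the first exon base that GENCODE M21 annotates. The Ppp1r3g stretch is chr13:35967656-35967852 (plus strand, 197 bases) and belongs to the shorter of its coding transcripts. The Ppp1r3c stretch is chr19:36736654-36736854 (minus strand, 201 bases). Capitals mark the motif CACGTG (the palindromic E-box) and CCAAT in either orientation.
Ppp1r3g: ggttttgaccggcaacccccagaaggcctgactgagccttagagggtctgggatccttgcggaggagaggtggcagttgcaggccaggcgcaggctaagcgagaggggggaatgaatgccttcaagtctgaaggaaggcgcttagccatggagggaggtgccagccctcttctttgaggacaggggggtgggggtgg
Ppp1r3c: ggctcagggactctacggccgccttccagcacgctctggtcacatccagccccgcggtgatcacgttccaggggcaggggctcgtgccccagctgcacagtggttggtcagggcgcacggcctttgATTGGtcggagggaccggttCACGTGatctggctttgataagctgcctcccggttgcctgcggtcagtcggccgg

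Over the whole 300-base windows, both strands, Ppp1r3c held CACGTG 1 time and CCAAT 2 times. Ppp1r3g held CCAAT 1 time and, as a further motif, TGACGTG 1 time, both downstream of the stretch printed. CACGTG occurred also in Ppp1r3d, and CCAAT 3 times in Ppp1r3f, while Gbe1 and Pygl held none of the motifs searched. Of all 32851 promoter windows in the table, 7.15% held the E-box and 37.4% held CCAAT. The motif TGACGTG was in 2.01% of them, and its first letters can overlap with the end of an E-box. TGTTTAC (3.65% of windows) was in none of the 6, and neither was the longer endoplasmic reticulum stress response element (0.119%), which contains CCAAT. The motifs were chosen with the sequences in view, and a match is a description of letters.

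To compare the subunits with each other, their levels were summed per library on a scale that divides by length. The summed FPKM of the 6 subunit genes was 47.7, 53.1 and 53.5 in WT and 47.5, 45.0 and 50.3 in S100a16KO+/- libraries. The ranges overlapped, with means of 51.4 ± 3.21 and 47.6 ± 2.62 (SD, n = 3 each), so the S100a16KO+/- sum was 92.6% of the WT sum. Without Ppp1r3g, the sum was 47.7 to 53.5 FPKM in WT and 6.73 to 7.95 FPKM in S100a16KO+/- libraries, the latter 14.6% of the WT mean. On the FPKM scale, then, the sums of all 6 lay close together and those of the other 5 far apart.

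The leading subunit was a different one in each genotype. Ppp1r3b made up 79.3% ± 0.922 of the summed FPKM in WT and 9.44% ± 1.12 in S100a16KO+/- libraries (SD, n = 3 each). Ppp1r3g made up 0.0176% and 84.2% ± 0.801. Ppp1r3c went from 19.1% ± 0.961 to 4.78% ± 0.580, and Ppp1r3e stayed a small share, at 1.53% ± 0.310 and 1.45% ± 0.0993. In each library of either genotype, a single subunit supplied more than the other 5 together.

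**Figure D2:**
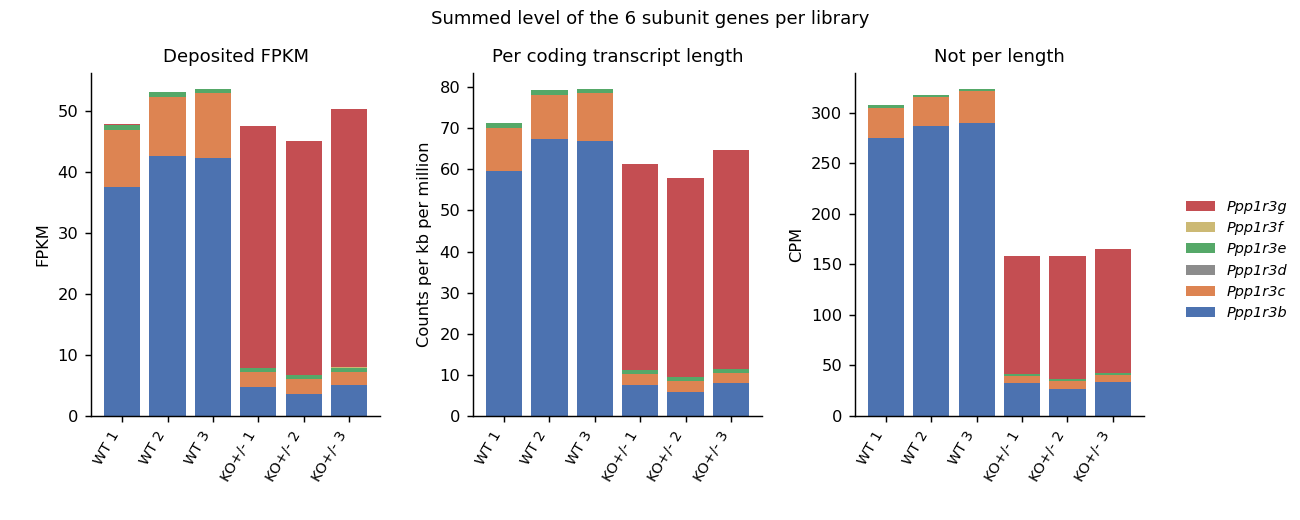
Stacked bars of the 6 subunit genes in each library (KO+/- stands for S100a16KO+/-), on the deposited FPKM scale, as scaled counts per kilobase of the longest coding transcript, and as CPM without division by length. Ppp1r3b fills most of each WT bar and Ppp1r3g most of each S100a16KO+/- bar; the S100a16KO+/- mean is 92.6%, 79.9% and 50.8% of the WT mean from left to right.

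Whether the totals of the genotypes overlapped depended on the length used and on the scaling between libraries. The deposited FPKM divides by the union of all annotated exons of a gene: over 8917 genes the product of FPKM and union length was within 1% of a fixed multiple of the counts in 92.7%. For Ppp1r3b that union is 6216 bases, against 4386 bases for its longest coding transcript, mostly because a noncoding transcript adds an exon of its own. For Ppp1r3g the union is 2694 bases and the longest coding transcript 2389. With the counts divided by the longest coding transcript (a scale added after the data were seen), the sum was 71.3, 79.3 and 79.5 in WT and 61.3, 57.8 and 64.7 in S100a16KO+/- libraries, in library-scaled counts per kilobase. On that scale the genotypes did not overlap, and the S100a16KO+/- mean was 79.9% of the WT mean. With FPKM rescaled by TMM the sums did not overlap either, at 50.1 to 52.8 and 46.4 to 48.3. As CPM, which counts a longer transcript more, the sum was 316 ± 7.96 in WT and 161 ± 3.60 in S100a16KO+/- libraries. The exchange of Ppp1r3b for Ppp1r3g as the leading subunit held on each of these scales.

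Gys2 (ENSMUSG00000030244, chromosome 6 from 142422613 to 142473109, minus strand) encodes the liver isoform of glycogen synthase, the substrate that the targeting subunits bring to PP1. It was at 56.0, 56.4 and 59.2 FPKM in WT and at 135, 124 and 141 FPKM in S100a16KO+/- libraries. Every S100a16KO+/- library lay above every WT library. The log2 fold change was 1.21 (standard error 0.05), 2.31-fold higher in CPM.

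Pygl (ENSMUSG00000021069, chromosome 12 from 70190811 to 70231488, minus strand) encodes the liver phosphorylase that degrades glycogen. Its FPKM was 45.2, 50.9 and 48.5 in WT and 51.0, 44.6 and 49.2 in S100a16KO+/- libraries. The ranges overlapped fully, and the log2 fold change was -0.01 (standard error 0.05). Gbe1 (ENSMUSG00000022707, chromosome 16 from 70313949 to 70569716, plus strand), the branching enzyme, was at 109, 102 and 106 CPM in WT and 119, 122 and 120.5 CPM in S100a16KO+/- libraries. The groups did not overlap, but the difference was small, with a log2 fold change of 0.19 (standard error 0.05).

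The ratio of Gys2 to Pygl followed from these values. In FPKM it was 1.24, 1.11 and 1.22 in WT and 2.66, 2.78 and 2.86 in S100a16KO+/- libraries. Here too the order of the genes depended on the length, since the exons of Pygl add up to 6895 bases and its longest coding transcript to 2992. Per coding transcript length the ratio was 0.516 ± 0.0305 in WT and 1.20 ± 0.0451 in S100a16KO+/- libraries (SD, n = 3 each). On that scale Pygl was the more abundant transcript in WT and Gys2 in S100a16KO+/- hepatocytes, whereas on the FPKM scale Gys2 led in both. The ratio of Gys2 to Gbe1 in FPKM was 3.24 ± 0.0331 and 6.60 ± 0.158.

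**Figure D3:**
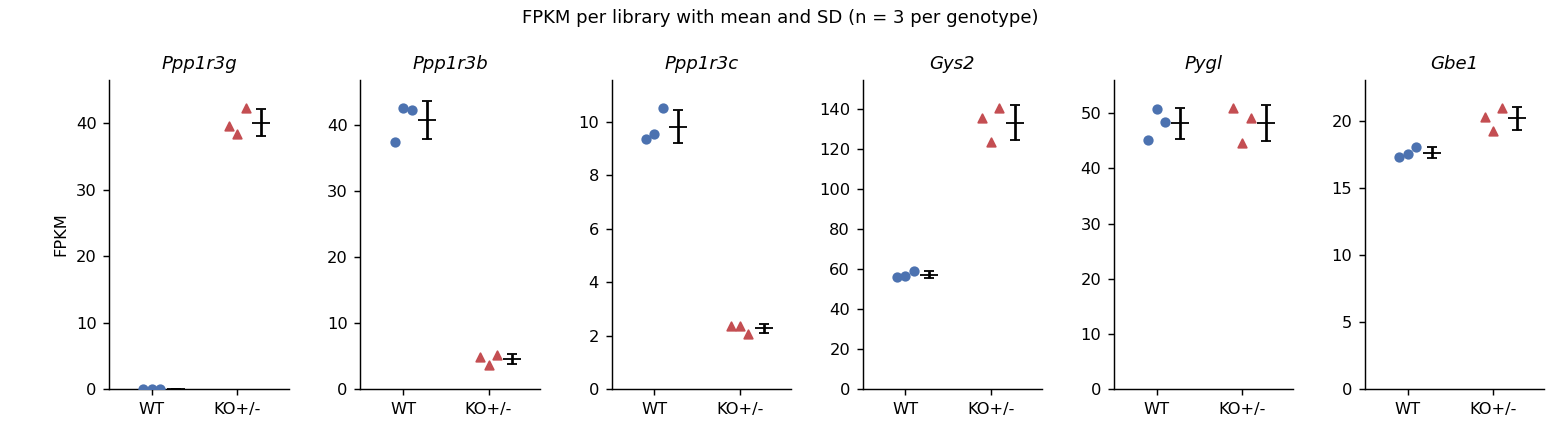
FPKM of Ppp1r3g, Ppp1r3b, Ppp1r3c, Gys2, Pygl and Gbe1 in each library (circles WT, triangles S100a16KO+/-, KO+/- on the axis), with the mean and SD of 3 libraries beside the points. Ppp1r3g and Gys2 are higher and Ppp1r3b and Ppp1r3c lower in every S100a16KO+/- library, Gbe1 is slightly higher, and Pygl overlaps.

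Around Ppp1r3g the table held 8 genes that overlap it or lie within 100 kb. Of these 5 were tested, and 3 passed an adjusted p under 0.05 in edgeR's quasi-likelihood test, against 22.8% of all tested genes. The pseudogene Gm18132, 1 of the 3, had 0 counts in each WT library and 53, 17 and 26 in the S100a16KO+/- libraries. Gm18132 passed the filter on low counts through its S100a16KO+/- libraries alone. Nothing is therefore read from its call or from the count of 3. The pseudogene Tmed10-ps rose (log2 fold change 0.69, standard error 0.18, adjusted p = 0.0126, edgeR), and Cdyl, a chromodomain gene that ends upstream of Ppp1r3g, fell (log2 fold change -0.75, standard error 0.21, adjusted p = 0.0174, edgeR). Rpp40 and Lyrm4, the nearest coding genes on each side, did not pass, with log2 fold changes of 0.49 (standard error 0.20) and -0.20. Gm30127, an antisense gene whose body spans the distal first exon of Ppp1r3g, had 0 counts in each WT library and 5, 3 and 34 in the S100a16KO+/- libraries. No exon of Gm30127 overlaps one of Ppp1r3g. The pseudogenes could share reads with their parent genes.

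Near Ppp1r3b, 1 of 2 tested neighbours passed an adjusted p under 0.05 (edgeR), and it was lower. Gm45469 is annotated as a bidirectional-promoter long noncoding RNA on the other strand, and its body spans the first exon of Ppp1r3b. It had 42, 37 and 41 counts in WT and 0, 12 and 0 in S100a16KO+/- libraries (log2 fold change -3.23, standard error 0.99). Gm45469 passed the filter on low counts through its WT libraries, where it was high, so nothing is read from its call. Gm45301 had 7, 5 and 3 counts in WT and 0 in each S100a16KO+/- library, all under the limit of 12 counts. Eri1, the next coding gene, had 370 to 393 counts in WT and 323 to 420 in S100a16KO+/- libraries. The libraries were strand-specific, but whether the counting used strand was not given in the sources used here, and the annotated exons of Gm45469 lie in introns or outside of Ppp1r3b, so unspliced reads of the 2 genes may not be separable.

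Outside the 9 genes, 39 other genes of the pathway were listed in 4 groups, and 36 of them were tested. Of these, 10 (27.8%) had an adjusted p under 0.05 in edgeR's quasi-likelihood test, against 22.8% of all tested genes, 5 higher (11.6% of all tested genes were higher) and 5 lower (11.2%) in S100a16KO+/- hepatocytes. Their median log2 fold change was -0.05, and that of all tested genes 0.01. The share was thus near that of all genes.

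Among the phosphatase and glycogen-associated genes, 1 of 7 tested changed. Stbd1, which tethers glycogen to membranes, fell from 105 ± 4.58 to 52.0 ± 2.74 CPM (SD, n = 3 each; log2 fold change -1.02, standard error 0.06, adjusted p = 2.13e-08, edgeR). The catalytic subunits that all Ppp1r3 proteins share did not pass the test in this fit. Ppp1ca was at 51.4 ± 1.87 and 54.9 ± 3.19 CPM, Ppp1cb at 58.8 ± 4.63 and 57.9 ± 6.92 CPM, and Ppp1cc at 47.9 ± 3.54 and 41.6 ± 3.67 CPM (adjusted p = 0.307, 0.887 and 0.0650, edgeR). The CPM of Ppp1cc did not overlap between genotypes, and it passed when the counts were divided by 4 (log2 fold change -0.20, adjusted p = 0.0469, edgeR). Epm2a (laforin) and Nhlrc1 (malin), which regulate glycogen quality, differed by -0.28 and -0.51 on the log2 scale with standard errors of 0.19 and 0.37. Ppp1r1a was at 4 counts or fewer.

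In the group of synthesis and glucose entry, 2 of 9 changed, 1 up and 1 down. Ugp2, which makes the UDP-glucose that Gys2 consumes, rose from 371 ± 21.1 to 492 ± 19.6 CPM (log2 fold change 0.41, standard error 0.05, adjusted p = 7.38e-05, edgeR). The glucose transporter Slc2a2 (log2 fold change 0.02) and the phosphoglucomutase Pgm1 (-0.12) did not pass. Gys1, the synthase of other tissues, was at 2.14 ± 0.524 and 2.26 ± 0.631 CPM, and Gyg, which primes glycogen, at 4.34 ± 0.224 and 4.17 ± 0.591 CPM.

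In the group of breakdown and glucose release, 4 of 10 tested changed, 3 up and 1 down, all by less than 2-fold. G6pc, the glucose 6-phosphatase that releases free glucose, rose from 872 ± 15.2 to 1080 ± 38.6 CPM (log2 fold change 0.31, standard error 0.05, adjusted p = 0.000186, edgeR). Phkg2, the catalytic subunit of liver phosphorylase kinase, rose by 0.44 on the log2 scale (standard error 0.09, adjusted p = 0.00230, edgeR), while the other subunit genes tested, Phka1, Phka2 and Phkb, had values between -0.16 and -0.03 and did not pass. Gaa, the lysosomal glucosidase, rose by 0.22 (standard error 0.07, adjusted p = 0.0242, edgeR), a call that was lost without WT replicate 2 (adjusted p = 0.0791), WT replicate 3 (0.105), S100a16KO+/- replicate 1 (0.102) or S100a16KO+/- replicate 2 (0.0787). The phosphorylases of brain and muscle were scarce: Pygb was at 2.87 ± 0.609 and 2.70 ± 0.507 CPM, and Pygm at 0.253 ± 0.249 and 0.434 ± 0.151 CPM.

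Of the signalling genes that act on glycogen enzymes, 3 of 10 changed. Gcgr, the glucagon receptor, rose from 278 ± 14.0 to 338 ± 26.5 CPM (log2 fold change 0.28, standard error 0.06, adjusted p = 0.00414, edgeR). Prkaa2, a catalytic subunit of AMP-activated protein kinase, fell by 0.30 on the log2 scale (standard error 0.06, adjusted p = 0.00399, edgeR). Gsk3b, a kinase that phosphorylates and inactivates glycogen synthase, fell by 0.28 (standard error 0.09, adjusted p = 0.0340, edgeR), and this call was lost without WT replicate 1 (adjusted p = 0.0924), WT replicate 3 (0.118), S100a16KO+/- replicate 1 (0.0961) or S100a16KO+/- replicate 2 (0.0876). Insr (log2 fold change -0.05), Akt1 (0.11), Akt2 (0.06) and Gsk3a (-0.02) did not pass.

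**Figure D4:**
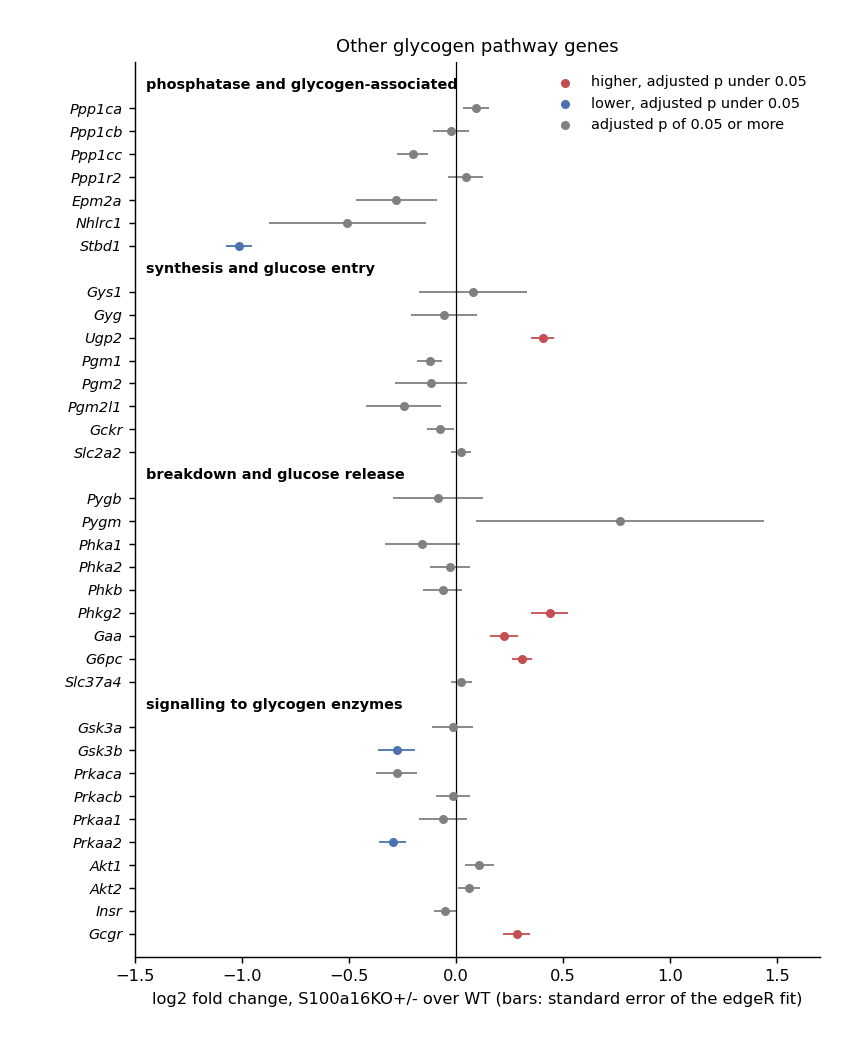
Log2 fold change, S100a16KO+/- over WT, of 34 of the tested pathway genes outside the 9, by group, with the standard error derived from the edgeR F statistic as bars. Coloured points have an adjusted p under 0.05 (edgeR). Stbd1 (-1.02) stands apart on the left, and the 5 genes that rose lie between 0.22 and 0.44.

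The genes whose pattern was most like that of 3 members were named by the Pearson correlation of log2(CPM + 1) over the 6 libraries, among 172 other genes averaging 10 CPM or more and differing at least 2-fold between genotypes. Because all of these genes were chosen for a difference between genotypes, high values were common: 66 genes had a correlation above 0.99 with Ppp1r3g, 39 with Ppp1r3b and 57 with Gys2. Those closest to Ppp1r3g were Stx5a, Manf, Etnppl, Hyou1 and Derl3 (0.9994 to 0.9999), with log2 fold changes from 1.22 to 3.76. Those closest to Ppp1r3b were Mid1ip1, Tuba1c, Gadd45a, Arrdc3 and Amt (0.9987 to 0.9997), with log2 fold changes from -2.87 to -1.14. The 5 closest to Gys2 included Rnd1, Manf, Got1 and Etnppl (0.9982 to 0.9988), so that Manf and Etnppl were among the 5 closest to both Ppp1r3g and Gys2. These values describe 6 libraries that share the genotype split and are not a test.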

How the data were processed

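Poly(A)-selected RNA of primary hepatocytes was sequenced as strand-specific paired-end libraries with molecular identifiers. Per the submitters' processing notes, cutadapt 1.9, HISAT2 2.0.4, UMI-tools, StringTie 1.3.4d, DESeq2 and edgeR were used on mm10; the parameters were not given in the sources used here. The authors deposited estimated counts, not scaled for library size, and FPKM values, scaled for library size and for the union exon length. Gene positions are those of the table: 23008 of its 25718 genes had the same start and end in GENCODE M21 (GRCm38).

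Estimated counts were rounded to whole numbers, and the genotypes were contrasted with edgeR 4.0.16 in R 4.3.3 (TMM, filterByExpr, robust quasi-likelihood fit, two-sided, no covariate), with Benjamini-Hochberg adjustment over 15957 tested genes. The standard errors printed were derived from this fit, as the absolute log2 fold change divided by the square root of the quasi-likelihood F statistic. The study's methods name DESeq2, which was run as an alternative (version 1.42.0), as was limma 3.58.1. Each library was taken as 1 replicate; if libraries do not come from separate mice, p-values measure technical spread. The members, pathway and marker lists and rules were chosen with earlier results of these data known. The 9 genes, the pathway list, the 5 genes closest in pattern to 3 members and the neighbours are the genes named, except for some that are not reported here. Scripts were tested on simulated data with known changes. Alternatives were the replicate block, left-out libraries, other filters, size factors, tools, pseudocounts, length scales and counts divided by 4.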

Additional observations from a re-analysis of the deposited data

How the results depend on the processing

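Of the 5 subunit and enzyme genes whose genotypes did not overlap, none changed sign under the alternatives run. Values that do not overlap in these same libraries leave little room for a change of sign, so nothing is read from this. The log2 fold change of Ppp1r3b ranged from -3.26 to -2.93, Ppp1r3c from -2.19 to -1.73, Gys2 from 1.18 to 1.23 and Gbe1 from 0.16 to 0.21. Among the members that overlapped, Ppp1r3e ranged from -0.34 to -0.10. Pygl ranged from -0.04 to 0.01 and so took either sign. The fitted value of Ppp1r3g ranged from 5.35 to 11.6 over these alternatives, lowest with limma on log2(FPKM + 1), and is no measure of its size. The log2 ratio of the summed subunit FPKM was -0.11; it was -0.32 per coding transcript length (chosen after seeing the data) and -0.98 as CPM, where longer transcripts weigh more. The share of Ppp1r3b in WT was then 84.2% and 89.8%, and in S100a16KO+/- libraries 11.6% and 19.4%. With each library left out, the ratio stayed between -0.16 and -0.07. A sum with Ppp1r3a could not be made, since the table held no gene under that symbol. Of the 36 pathway genes, 10 passed; 6 did so with limma on log2(FPKM + 1) and 6 on log2(FPKM + 0.1), where Gsk3b, Prkaa2 and Gcgr were among those lost, and 8 to 10 without 1 library. Prkaca (adjusted p = 0.0516 in edgeR) passed under DESeq2 (0.0433) and several other settings. Over all genes, 3643 passed, against 2188 and 2167 with the limma FPKM fits. With an unadjusted p under 0.05 and a fold of at least 2, 721 genes passed, against 137 and 251 with these fits and 382 with at least 1 CPM in 3 libraries. The cause of the lower counts was not tested, though the FPKM fits cover fewer genes.

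Same-numbered libraries of the genotypes did not deviate together (correlations of -0.05, -0.02 and 0.05). These values showed no pairing by number, but with 3 libraries per genotype they cannot exclude that libraries were matched. With the replicate number as a block, 3082 genes and the same 10 pathway genes passed, 711 met the fold criterion, and S100a16 had a log2 fold change of -1.40. For Ppp1r3d and Ppp1r3f, the depth allowed no comparison.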
